A study of Mus musculus with 4 samples.

Results

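The genes described here are the ligands and receptors of vascular endothelial growth factor (VEGF) in mouse embryonic fibroblasts, connective tissue cells grown from embryos. The members were 9 rows of the deposited gene table, taken by gene name out of 39179: the ligand genes Vegfa, Vegfb, Vegfc, Figf (the older name of Vegfd) and Pgf, the receptor genes Flt1 and Kdr, and the neuropilin genes Nrp1 and Nrp2. All 9 had enough reads to be tested. Messenger RNA was sequenced from 4 libraries of BALB/c fibroblasts in 2 groups of 2. In the SON group the lentivirus carried Stella, Oct4 and Nanos2, and in the GFP control group it carried green fluorescent protein. Both groups were infected at passage 2, were put under puromycin at 2 µg/ml from 72 h after infection for 4 days, and then grew for 21 days without the drug. The labels do not name the promoter that drives the delivered genes, and give no word on whether a group held separate cultures, so a p-value here reflects the spread between 2 libraries, which may be technical. The virus and the delivered genes cannot be told apart from the culture that received them.

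VEGF ligands are secreted dimers that bind receptor tyrosine kinases on endothelial cells and drive the growth of blood and lymph vessels. VEGF-A binds the receptors encoded by Flt1 and Kdr. VEGF-B and placental growth factor (Pgf) bind the Flt1 product alone, whereas VEGF-C and VEGF-D act mainly on the third receptor, Flt4, and processed VEGF-C also on the Kdr product. Kdr is the main signalling receptor of blood vessels, and Flt1 binds VEGF-A more tightly but signals weakly, so it acts largely as a decoy. Neuropilins hold VEGF and class 3 semaphorins at the cell surface. Fibroblasts are known as a source of the ligands, while Kdr is best known from endothelial cells.

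The libraries held between 14680865 and 37097571 reads in genes, the GFP control libraries being the deeper. Pou5f1 (the gene of Oct4), Dppa3 (the gene of Stella) and Nanos2 had 0 or 1 read in each GFP control library and between 201 and 329 reads in each SON library, as the labels state. All 11 fibroblast markers were read, and 10 of them had a negative difference, with a median of -1.19 on the log2 scale. For 8 of the 11 SON lay below both controls, where 23.7% of all 15283 genes tested did so. The authors' deposited table calls 5 lower (Lum, Dcn, Postn, Pdgfra and Col1a2), against 2.59% of 14637 genes with an adjusted p. Limma called none (0 higher and 6 lower unadjusted). Lum, the matrix proteoglycan lumican, had normalized counts of 32440.1 and 6050.1 in GFP control I and II, against 1106 and 893 in SON I and II. For these markers the median difference of GFP control I over GFP control II was 1.08, so the control libraries also differed from each other. Values below are normalized counts, that is reads divided by 1 size factor per library, unless stated otherwise. Differences are SON minus GFP control on the scale of log2 (normalized count + 1), with the standard error (SE) and the p-value of limma, a linear model fitted over all 15283 genes with enough reads, adjusted by the Benjamini-Hochberg method. A gene was called at an adjusted p under 0.05. In bulk RNA, fewer cells of a type and less RNA per cell cannot be told apart.

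Flt1 was the member that lay furthest below its control level, Vegfa, Vegfc and Pgf lay between 1.74-fold and 1.97-fold lower in SON, and Kdr lay 2.41-fold higher. None of the 9 was called by limma over all genes (0 of 9, against a background of 0.0523% of tested genes). At an unadjusted p under 0.05, 1 member was higher and 4 were lower, where 5.99% of all tested genes were higher and 6.57% lower. On normalized counts SON lay below both controls for 6 of the 9 and above both for 1. Of all tested genes 23.7% and 22.2% did so. For Vegfb and Nrp2 that order depended on the scaling. In reads per kilobase of exon, scaled to all reads in genes, their groups overlapped. There Vegfb was 13.4 in SON II against 12.1 in GFP control I, and Nrp2 19.9 in SON II against 19.7 in GFP control II. Counts from edgeR's quasi-likelihood test were the same, 0 of 9 called and 1 higher and 4 lower unadjusted. In the authors' deposited table, made with DESeq2, Flt1 and Vegfc are called lower, where 2.59% of 14637 genes with an adjusted p are called lower and 4.07% either way. An exact permutation test of a single gene over 2 against 2 libraries has 6 splits and cannot give a two-sided p below 0.333, so none was used.

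**Figure D1:**
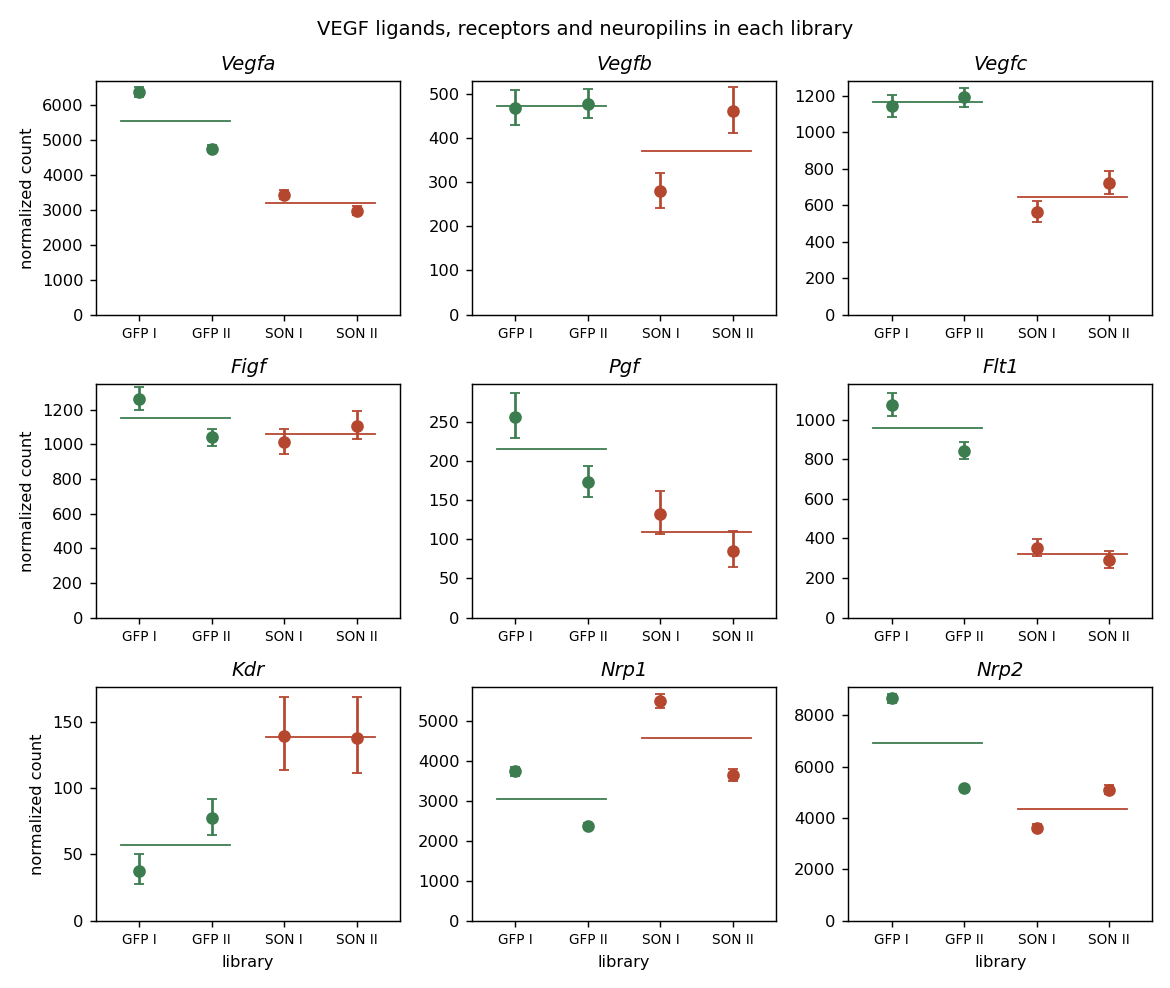
Normalized count (y axis, from 0, a scale of its own in each panel) of each of the 9 genes in each library (x axis). Points are libraries, bars are exact 95% Poisson intervals of the reads, which cover counting error only, and horizontal lines are group means. The SON points of Vegfa, Vegfb, Vegfc, Pgf, Flt1 and Nrp2 lie below both GFP control points (by 1.01-fold for Vegfb and Nrp2), and those of Kdr, 139 and 138, above both.

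Among the ligands, Vegfa, the main driver of blood vessel growth, had the highest level per length (reads per kilobase of exon). Vegfa (ENSMUSG00000023951, chromosome 17, 46016993 to 46032369, GRCm38) measured 6354 and 4746 in GFP control I and II, against 3428 and 2966 in SON I and II. Both SON libraries lay below both controls, the lower control being 1.38-fold above the higher SON library. The means were 5549.7 ± 1137 (SD, n = 2) and 3197 ± 327 (n = 2), a log2 difference of -0.78 ± 0.20 (SE, limma adjusted p = 0.270, 95% interval -1.28 to -0.28). The authors' deposited table gives Vegfa a log2 fold change of -0.76 with an adjusted p of 0.0641. DESeq2 rerun on the recovered reads called Vegfa lower at an adjusted p of 0.0440 (2.7% of genes were called lower in that rerun), and that call was lost without any 1 of the 4 libraries, with adjusted p from 0.0738 without SON I to 0.999985 without GFP control I.

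Vegfc, the ligand of lymphatic vessel growth, had the closest control libraries after Vegfb. Vegfc (ENSMUSG00000031520, chromosome 8, 54077606 to 54187096) measured 1142 and 1191 in GFP control I and II and 563 and 721 in SON I and II. The groups stood apart, with the lower control 1.58-fold above the higher SON library. Its means were 1166 ± 34.99 and 642 ± 112 (SD, n = 2 each), a log2 difference of -0.87 ± 0.18 (SE, limma adjusted p = 0.249, 95% interval -1.33 to -0.41). It is called lower in the authors' deposited table (log2 fold change -0.83, adjusted p 0.0302). On the recovered reads DESeq2 also called it (adjusted p = 0.0267), but the call did not hold in most fits with a library left out. Its DESeq2 difference there ran from -1.06 without SON II to -0.66 without SON I.

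Pgf, the ligand first found in placenta, had the fewest reads of the 5 ligands. Pgf (ENSMUSG00000004791, chromosome 12, 85166635 to 85177790) measured 256 and 173 in GFP control I and II and 132 and 85.2 in SON I and II, the latter from 97 and 58 reads. SON again lay below both controls, though the gap between the nearest libraries was 1.31-fold and each group spread by more than that. The log2 difference was -0.98 ± 0.34 (SE, limma adjusted p = 0.368, 95% interval -1.86 to -0.10), and it is not called in the authors' deposited table (adjusted p 0.224).

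The other 2 ligands differed less. Vegfb, a ligand linked to lipid uptake and heart muscle (ENSMUSG00000024962, chromosome 19, 6982473 to 6987651), measured 469 and 479 in the controls and 279.5 and 463 in SON I and SON II. SON II lay 1.01-fold below the lower control, so the mean difference of -0.40 ± 0.28 (SE, limma adjusted p = 0.617) rested on SON I, and without SON I it was -0.03 and without SON II -0.76. Figf, which encodes VEGF-D (ENSMUSG00000031380, chromosome X, 164373378 to 164402650), measured 1263 and 1041 in the controls and 1013 and 1108 in SON. Here the groups overlapped, with a log2 difference of -0.11 (limma adjusted p = 0.825, 95% interval -0.54 to 0.31). Without GFP control I the sign of the Figf difference turned, to 0.03. Thus 5 of 5 ligands had a negative difference, with a median of -0.78, and 4 of 5 had SON below both controls. Of these 4, Vegfb overlapped between the groups on levels per length, the scale used below for the ligand mix. Over all 15283 genes tested the median was -0.01, 7752 differences were negative, and 23.7% of genes had SON below both controls.

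The start regions of Vegfa and Vegfc are shown because both genes lay lower in SON, so that their letters can be set beside those of Flt1 and Kdr further on. RefSeq windows of 250 bases before the start (GRCm38.p6) were found for all 9 genes, 11 windows in all, and are written 5′ to 3′ on the gene's strand. Capitals mark matches, on either strand, to the octamer ATGCAAAT bound by Oct4, the cyclic AMP response element TGACGTCA, the hypoxia response core ACGTG, the GC box GGGCGG and the TATA box TATAAA, motifs chosen after these sequences had been seen. None of these matches overlapped a match to another motif.
Vegfa (chr17:46032378-46032627, minus strand): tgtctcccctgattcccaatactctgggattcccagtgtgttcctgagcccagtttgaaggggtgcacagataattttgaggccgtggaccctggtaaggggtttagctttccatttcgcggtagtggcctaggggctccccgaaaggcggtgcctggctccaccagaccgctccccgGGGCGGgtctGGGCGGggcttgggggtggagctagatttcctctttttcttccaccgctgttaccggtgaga
Vegfc (chr8:54077282-54077531, plus strand): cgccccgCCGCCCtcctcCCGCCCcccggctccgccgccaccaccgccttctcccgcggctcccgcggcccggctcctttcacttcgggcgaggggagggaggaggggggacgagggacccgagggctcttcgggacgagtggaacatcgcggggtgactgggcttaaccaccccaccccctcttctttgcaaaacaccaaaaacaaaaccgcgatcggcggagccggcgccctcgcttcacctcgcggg
Each of these windows held 2 GC boxes and no match to the other letters. A GC box was present in 32.7% of all 32851 RefSeq windows of that length. The octamer was found in none of the 11 windows of the 9 genes and in 1.6% of all windows. The letters ACGTG of the hypoxia core were absent from the first window of Vegfa and present once in its second window, at an internal start (16.6% of all windows). The variant core GCGTG was not searched for. A match is a description of letters and shows no binding, and no match says only that the letters are not in these bases.

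The ligand mix was compared per length. Levels here are reads per kilobase of annotated exon per 1000000 reads in genes, with the union of all annotated exons as the length. Summed over the 5 ligands the level was 118 and 108 in GFP control I and II and 70.5 and 81.8 in SON I and II. The SON mean was 0.673 of the control mean (113 ± 7.10 and 76.2 ± 7.97, SD, n = 2 each), and the groups did not overlap. Vegfa alone had a mean of 55.8 in the controls and 32.9 in SON, so the sum largely repeats Vegfa. On this scale Vegfc and Pgf also stood apart, while Vegfb and Figf overlapped between the groups. Vegfa made up 51.9% and 46.5% of that sum in the controls and 47.9% and 39.2% in SON I and II. Figf held 18.4% and 18.1% in the controls and 25.2% and 26.1% in SON. Vegfa per Vegfc was 3.18 and 2.28 in GFP control I and II and 3.48 and 2.35 in SON I and II, so this ratio differed more between the libraries of a group than between the groups.

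**Figure D2:**
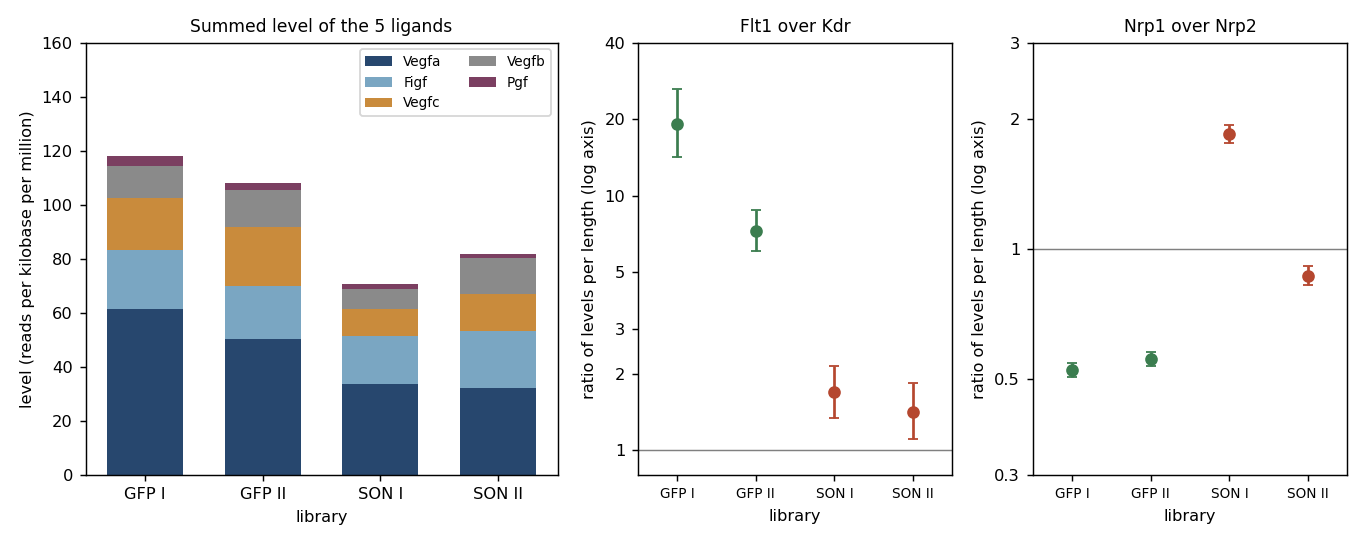
Left, summed level of the 5 ligands in each library (stacked bars from 0, in reads per kilobase per 1000000 reads in genes). Centre and right, the ratio of levels per length of Flt1 over Kdr and of Nrp1 over Nrp2 (log axes), with exact 95% binomial intervals of the reads and a line at 1. Flt1 over Kdr is 19.1 and 7.29 in the controls and 1.69 and 1.42 in SON, and Nrp1 over Nrp2 is above 1 in SON I alone.

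The 2 receptors lay on opposite sides of their controls. Flt1, the tight-binding receptor that also gives a secreted short form, measured 1076 and 843 in GFP control I and II, against 352 and 292 in SON I and II (ENSMUSG00000029648, chromosome 5, 147561604 to 147726011). The groups did not overlap, and the lower control lay 2.4-fold above the higher SON library, the widest such gap of the 9 genes. Its means were 959 ± 164.7 and 322 ± 42.1 (SD, n = 2 each), 2.98-fold lower in SON, with a log2 difference of -1.57 ± 0.21 (SE, limma adjusted p = 0.228, 95% interval -2.09 to -1.04). Of the 7752 genes with a negative difference, 4.41% lay as far below or further. Flt1 is called lower in the authors' deposited table, with a log2 fold change of -1.50 and an adjusted p of 7.98e-06. DESeq2 on the recovered reads called it with all libraries (adjusted p = 3.46e-06), where 2.7% of genes were called lower. That call did not hold without GFP control I. With a library left out the DESeq2 difference ran from -1.72 without GFP control II to -1.39 without GFP control I. Counts per gene do not separate the secreted form of Flt1 from the membrane form.

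Kdr, the main signalling receptor, had the lowest level per length of the 9 genes and lay on the other side. Kdr (ENSMUSG00000062960, chromosome 5, 75932827 to 75978458) measured 37.6 in GFP control I from 45 reads, 77.3 in GFP control II from 130 reads, and 139 and 138 in SON I and II from 102 and 94 reads. Both SON libraries lay above both controls, by at least 1.79-fold, while the controls differed from each other by -1.02 on the log2 scale. The means were 57.4 ± 28.1 and 139 ± 0.71 (SD, n = 2 each), 2.41-fold higher in SON, with a log2 difference of 1.34 ± 0.41 (SE, limma adjusted p = 0.325, 95% interval 0.30 to 2.39). In the authors' deposited table Kdr has a log2 fold change of 1.12 with an adjusted p of 0.138. The difference was 0.83 without GFP control I and 1.85 without GFP control II. Separation upward, as for Kdr, was seen in 22.2% of tested genes, and 3.88% of the 7531 genes with a positive difference lay as far above or further.

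Within each library the balance of the receptors can be read without any scaling between libraries. Per length, Flt1 exceeded Kdr 19.1-fold in GFP control I (exact 95% binomial interval 14.2 to 26.4) and 7.29-fold in GFP control II (6.09 to 8.80). In SON it did so 1.69-fold in SON I (1.34 to 2.15) and 1.42-fold in SON II (1.10 to 1.83). The SON intervals overlapped each other, the control intervals did not, and neither SON interval reached either control interval. These intervals cover counting error only. SON lay below both controls for Flt1 and above both for Kdr. The ratio therefore had to separate the groups, and it adds no support of its own. How often other pairs of genes separate in this way was not counted. Summed per length, Flt1 and Kdr together came to 3.47 and 3.22 in the controls and 1.75 and 1.71 in SON, 0.518 of the control mean. Flt4, the third receptor, had 446 and 618 in the controls and 581 and 633 in SON (log2 difference 0.21, limma adjusted p = 0.748), with overlapping groups.

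The windows before the starts of Flt1 and Kdr are shown because 1 gene lay lower and the other higher, with capitals as above.
Flt1 (chr5:147726012-147726261, minus strand): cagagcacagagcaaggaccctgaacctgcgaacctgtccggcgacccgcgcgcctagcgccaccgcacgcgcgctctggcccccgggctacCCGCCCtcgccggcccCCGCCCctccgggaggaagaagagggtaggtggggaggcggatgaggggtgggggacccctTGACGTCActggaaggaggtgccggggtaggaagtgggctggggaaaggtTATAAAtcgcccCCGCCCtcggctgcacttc
Kdr (chr5:75978456-75978705, minus strand): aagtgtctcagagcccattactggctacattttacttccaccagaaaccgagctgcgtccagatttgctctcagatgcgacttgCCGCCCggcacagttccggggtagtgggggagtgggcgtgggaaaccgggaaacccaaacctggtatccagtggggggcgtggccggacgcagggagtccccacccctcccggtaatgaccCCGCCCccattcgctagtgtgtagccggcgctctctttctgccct
Flt1 held 3 GC boxes, a TATA box from 31 to 26 bases before the start and 1 cyclic AMP response element from 81 to 74 bases before it. Kdr held 2 GC boxes and none of the other letters. The cyclic AMP element occurred in 1.55% of all 32851 windows and in none of the other members' windows, and the TATA box in 12.4% of all windows and, among the members, also in Figf. The letters ACGTG of the hypoxia core were in neither receptor's window. The variant GCGTG, which was not searched for, can be read on 1 strand or the other in both windows as printed.

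The neuropilins had higher levels per length than Flt1 and Kdr and differed in opposite directions, neither past the threshold. Nrp1, which binds VEGF-A and semaphorin 3A (ENSMUSG00000025810, chromosome 8, 128358604 to 128503363), measured 3748 and 2368 in GFP control I and II and 5517 and 3649 in SON I and II. SON II lay between the controls, so the groups overlapped, and the log2 difference was 0.59 ± 0.31 (SE, limma adjusted p = 0.502, 95% interval -0.19 to 1.37). With a library left out it ran from 0.26 without GFP control II and 0.29 without SON I to 0.89 without SON II and 0.92 without GFP control I. The exons of Nrp1 hold the microRNA gene Mir1903, to which no read was assigned. Nrp2, which binds VEGF-C and semaphorin 3F (ENSMUSG00000025969, chromosome 1, 62703285 to 62818695), measured 8652 and 5152 in the controls and 3626 and 5089.9 in SON. SON II lay 1.01-fold below GFP control II, but above it per length (19.9 against 19.7), where the groups overlapped. The log2 difference was -0.64 ± 0.31 (SE, limma adjusted p = 0.480, 95% interval -1.42 to 0.15). That difference was -0.26 without GFP control I and -0.39 without SON I, and -1.01 without GFP control II. The authors' deposited table calls neither, with adjusted p of 0.562 for Nrp1 and 0.437 for Nrp2.

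The neuropilins were also compared with each other inside each library. Per length, Nrp1 over Nrp2 was 0.524 in GFP control I (exact 95% binomial interval 0.506 to 0.543), 0.556 in GFP control II (0.536 to 0.577), 1.84 in SON I (1.75 to 1.93) and 0.868 in SON II (0.824 to 0.914). The controls lay close together, and both SON libraries lay above both, yet SON I and SON II differed by more than SON II differed from the controls. The summed level of Nrp1 and Nrp2 was 46.1 and 30.7 in the controls and 36.7 and 37.2 in SON, so SON lay between the controls.

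Ordered by level per length, the control group ran Vegfa (55.8 ± 7.88), Nrp2, Vegfc, Figf, Nrp1, Vegfb, Pgf, Flt1 (3.06 ± 0.33) and Kdr (0.280 ± 0.153, SD, n = 2 each). Neighbours that overlapped in the controls were Nrp2 and Vegfc, Vegfc and Figf, Nrp1 and Vegfb, and Pgf and Flt1. In SON the order was Vegfa (32.9 ± 1.20), Nrp1, Figf, Nrp2, Vegfc, Vegfb, Pgf, Flt1 (1.05 ± 0.068) and Kdr (0.680 ± 0.041). There the genes from Nrp1 to Vegfb each overlapped the next, while Vegfa, Pgf, Flt1 and Kdr stood apart from their neighbours. Vegfa was thus first and Kdr last in both groups. The union of exons was longest for Flt1, at 13504 bases, and levels per length depend on this choice of length.

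**Figure D3:**
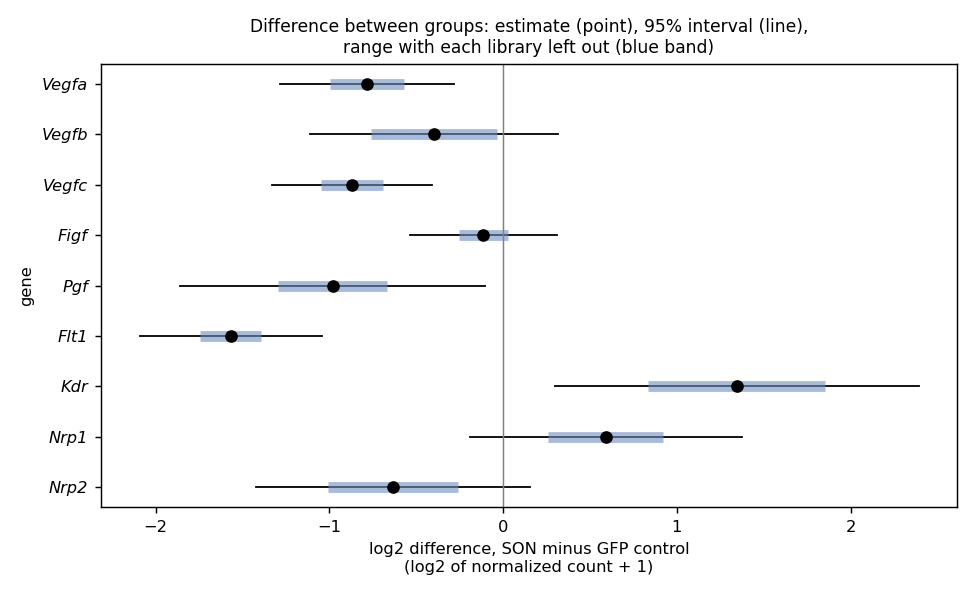
Log2 difference, SON minus GFP control (x axis), for each of the 9 genes (y axis). Points are limma estimates over 4 libraries, black lines their 95% intervals and blue bands the range of the estimate with each library left out in turn. The band crosses 0 for Figf alone, and the intervals of Vegfb, Figf, Nrp1 and Nrp2 include 0.

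Profiles most like those of the ligand and the receptor with the largest differences were sought among 10535 named genes with at least 5 CPM (reads scaled to a common library size), by the Euclidean distance between centred log2 values over the 4 libraries. Nearest to Pgf were Csf3, a growth factor of granulocytes (distance 0.0199), Cdh3, a cadherin (0.0711), and B3gnt9, a glycosyltransferase gene (0.124). Nearest to Flt1 were the MHC class I gene H2-T10 (0.133), the interferon-induced gene Xaf1 (0.151) and Brinp3 (0.161). With 4 libraries many genes share a profile, and the distances are a description only.

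Genes that process VEGF or hold it at the surface lay on both sides. Of the 16 listed beside the members, all were tested and 0 were called by limma, with 3 higher and 4 lower at an unadjusted p and a median of 0.17. The difference was positive for 11 and negative for 5. SON lay above both controls for 6 and below both for 4, where 22.2% and 23.7% of all tested genes did so. Those called lower in the authors' deposited table were Ccbe1 and Adamts2, where 2.59% of 14637 genes are called lower. Ccbe1, a secreted protein needed for the cleavage of pro-VEGF-C, measured 1723 and 1187 in the controls and 314 and 699 in SON (log2 difference -1.61, limma adjusted p = 0.274). Adamts2, a procollagen protease of the family whose member Adamts3 cleaves pro-VEGF-C, measured 5886 and 2139 in the controls and 1602 and 1135 in SON (-1.39, limma adjusted p = 0.371). Adamts3 itself, not called in that table, measured 144 and 68.4 in the controls. In SON it measured 39.5 and 17.6, from 29 and 12 reads (-1.87, limma adjusted p = 0.324).

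Inside the cell, the signalling genes that carry VEGF receptor output lay evenly on both sides. Of 47 listed, 46 were matched by name, 44 were tested, and 22 lay higher and 22 lower, with a median of -0.0026 and 0 called by limma (4 higher and 2 lower unadjusted). The authors' deposited table calls 1 gene of the list, Hspb1, higher, where 217 of all 14637 genes with an adjusted p are called higher. Hspb1 encodes a heat shock protein phosphorylated downstream of VEGF and p38. Hspb1 measured 1218 and 1553 in the controls and 3563 and 2189 in SON (log2 difference 1.02, limma adjusted p = 0.281). Nos3, the endothelial nitric oxide synthase, had at most 4.76 normalized counts in any library and was not tested.

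Class 3 semaphorins, which share the neuropilins with VEGF, and their plexin partners lay mostly higher. All 12 were tested, with 9 higher and 3 lower, a median of 0.56 and 0 called by limma (5 higher and 0 lower unadjusted). SON lay above both controls for 7 of 12, against 22.2% of all tested genes. The authors' deposited table calls Plxna1 and Plxna2 higher (as it does 217 of 14637 genes), both plexins that signal together with neuropilins. Plxna2 measured 256 and 350.1 in the controls and 734 and 875 in SON (log2 difference 1.42, limma adjusted p = 0.230), and Plxna1 4257 and 4018 in the controls and 6883 and 6635 in SON (0.71, limma adjusted p = 0.241).

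Of 16 transcription factors and oxygen-sensing genes that act on Vegfa, 12 lay lower, with a median of -0.30 and 0 called by limma (1 higher and 5 lower unadjusted). The authors' deposited table calls 3 lower, where 2.59% of 14637 genes are called lower. They are Hif1a, the oxygen-regulated subunit of the hypoxia factor, and Egln1 and Egln3, hydroxylases that mark it for breakdown. Hif1a measured 16635 and 15446 in the controls and 9407 and 9887 in SON (log2 difference -0.73, limma adjusted p = 0.257). Egln3, which is itself induced by hypoxia, measured 1731 and 1304 in the controls and 380.4 and 489 in SON (-1.80, limma adjusted p = 0.212), and Egln1 3581 and 3236 in the controls and 1864 and 2080.03 in SON (-0.79, limma adjusted p = 0.230). Whether any of these bears on Vegfa was not tested.

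Other secreted factors of vessel growth, promoters and inhibitors alike, lay lower more often than higher. Among 17 promoters of growth, 13 lay lower, with a median of -0.61 and 0 called by limma (0 higher and 5 lower unadjusted). Called lower in the authors' deposited table were Apln, Angpt1, Adm, Il6 and Angptl4, where 2.59% of 14637 genes are called lower. Apln, the ligand of the apelin receptor on endothelial cells, measured 601 and 251 in the controls and 58.6 and 61.7 in SON (log2 difference -2.67, limma adjusted p = 0.230). Angpt1, the ligand that stabilises vessels through Tek, measured 790.1 and 345 in the controls and 121 and 128 in SON (-2.06, limma adjusted p = 0.249), and Adm, the vessel-dilating peptide adrenomedullin, 4052 and 3583 in the controls and 1349 and 1462 in SON (-1.44, limma adjusted p = 0.170). Among 17 genes listed as inhibitors of vessel growth 16 were tested, with 10 lower, a median of -0.35 and 0 called by limma (0 higher and 4 lower unadjusted). These counts include Prl2c2 (log2 difference 0.48), whose product proliferin is known instead as a promoter of vessel growth. The authors' deposited table calls Thbs2, Cxcl9, Cxcl10 and Isg15 lower, of which Thbs2, the matrix protein thrombospondin 2, measured 192378 and 59972 in the controls and 25764 and 32176 in SON (-1.90, limma adjusted p = 0.325). Cxcl9, Cxcl10 and Isg15 are known as interferon-induced genes, and Isg15, also in these counts, is not best known as an inhibitor of vessel growth.

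**Figure D4:**
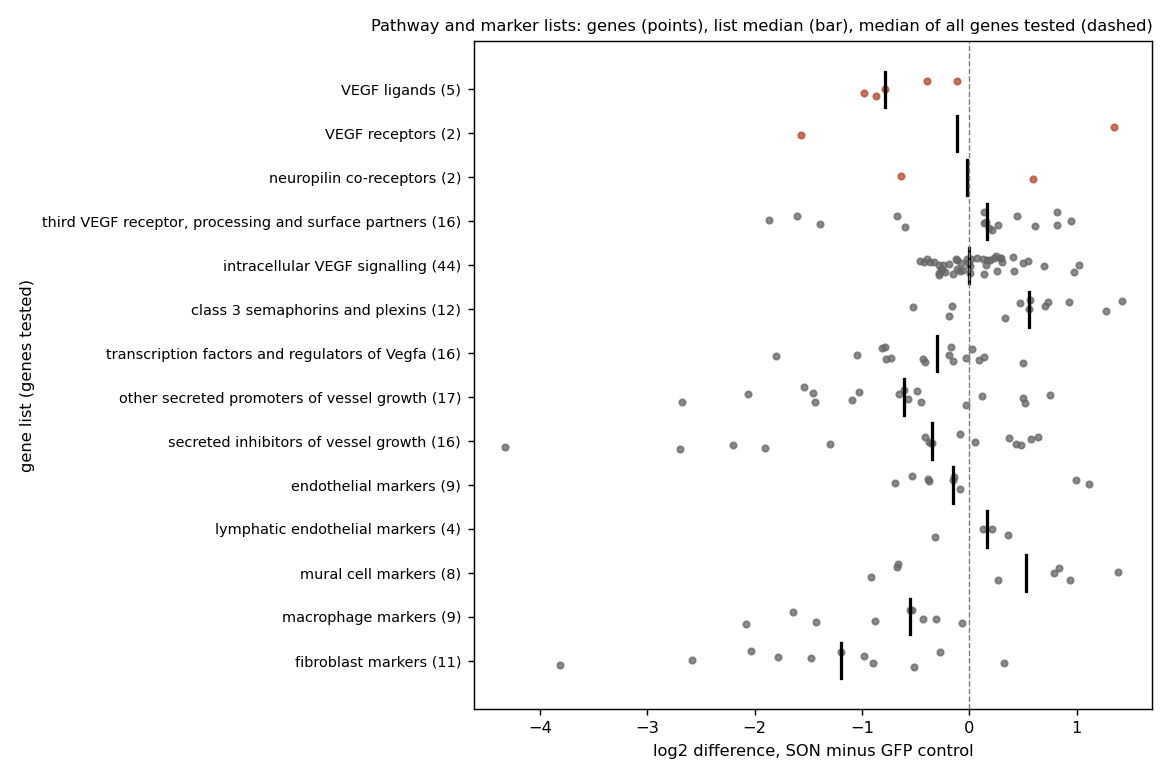
Log2 difference, SON minus GFP control (x axis), of each tested gene (points) in the 3 groups of members (red) and 11 other lists (grey), with the number tested in brackets, list medians as black bars and the median of all genes tested as a dashed line. All 5 ligand points lie left of 0, the 2 receptors and the 2 neuropilins lie on opposite sides, and 44 signalling genes centre on 0.

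Markers of the cell types best known for the receptors were set beside them. Of 16 endothelial markers 9 were tested, with 2 higher and 7 lower, a median of -0.15 and 0 called by limma (1 higher and 0 lower unadjusted). The 2 higher were Tek and Esam. Tek measured 15.0 and 21.4 in the controls and 47.7 and 33.8 in SON (log2 difference 1.12, limma adjusted p = 0.374). Esam measured 7.52 and 19.0 in the controls and 17.7 and 35.3 in SON (1.00, limma adjusted p = 0.574), with overlapping groups. The summed normalized count of the 16 markers was 303 and 349 in the controls and 290.4 and 342 in SON, so the groups overlapped. Sox18 had no read in any library, Sox17 and Cldn5 had 1 read in GFP control I and none elsewhere, and Cdh5, the cadherin of endothelial junctions, had between 3.34 and 8.81 normalized counts. The 2 with the largest mean normalized counts, Egfl7 and Emcn, measured 134 and 148, and 41.8 and 55.9, in the controls, and 121 and 132, and 46.4 and 23.5, in SON. Of 6 lymphatic markers 4 were tested, with 3 higher and a median of 0.17, Pdpn and Flt4 having the largest mean normalized counts, and Pdpn measured 7945 and 8609 in the controls and 3660 and 11929 in SON.

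Macrophages, which also carry Flt1, and mural cells were checked in the same way. All 9 tested of 12 macrophage markers lay lower, with a median of -0.55 and 0 called by limma (0 higher and 1 lower unadjusted). SON lay below both controls for 3 of the 9, where 23.7% of all tested genes did so. The summed normalized count of the 12 was 1047 and 1312 in the controls and 345 and 1133 in SON I and II. Cd53 and Lyz2, with the largest mean normalized counts of them, measured 427 and 537, and 352 and 377, in the controls, and 164 and 413, and 43.6 and 306, in SON. Of 10 mural cell markers 8 were tested, with 5 higher and a median of 0.53, and none was called by limma (1 higher and 1 lower unadjusted). Pdgfrb, the growth factor receptor of mural cells and fibroblasts, measured 15562 and 11231 in the controls and 8440.4 and 8169 in SON, and Mcam 1268 and 1186 in the controls and 8614 and 1194 in SON. The part of other cell types in the members' differences was not tested.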

How the data were processed

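Per the labels' protocols, the authors made libraries from RNA with the TruSeq mRNA kit v2, which does not mark strand. The submitters' processing notes name the aligners STAR 2.4.0j and TopHat2 2.0.11, the counters featureCounts (Subread) and HTSeq 0.5.3p3, CASAVA 1.8.1, DESeq2 and the build GRCm38 (mm10), without saying which made the gene table. The authors deposited a signal per gene and library for 39179 genes, which was reads divided by 1 size factor per library: 100% of values were whole multiples of the library's step within 0.01 reads, and these reads were recovered. Per the file headers, the deposited table also holds the authors' DESeq2 columns: a log2 fold change and its standard error, a Wald score, and p-values. These were used as the authors' comparison only. The deposited table of repeats was not used here.

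Groups and numerals came from the titles. Size factors lay between 0.681 and 1.68, and a floor of 3 reads was between 1.78 and 4.41 normalized counts. No library was a copy of another (chi-square per degree of freedom between libraries of at least 48.2). Limma 3.58.1 (R 4.3.3) was fitted with a trend, two-sided, on log2 (value + pseudocount of 1). It used the 15283 genes that filterByExpr of edgeR 4.0.16 kept. The fit was also tried on simulated data, with larger changes than any member showed, so that trial cannot tell how changes of the members' size are called. The alternatives tried were a pseudocount of 0.1 or 10, testing every gene with a read, keeping genes with 1 CPM in 2 libraries, TMM factors, edgeR, DESeq2 1.42.0 and limma voom on the recovered reads, a replicate block, and each library left out. DESeq2 with a library left out was added after seeing the data.

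The members and gene lists were chosen with earlier results of these data known. Beside the members, genes named in a list are those that limma or the authors' deposited table calls, in some lists only the first few of them, or else the 2 with the largest mean normalized count. Nos3, Cdh5, Sox17, Sox18, Cldn5, Tek, Esam and Adamts3 fall outside this rule and were named after their values were seen. Hras was not matched, and for the names Pdpn and Ccl21a, each on more than 1 row, the row with the most reads was taken. Exon lengths and positions are from GENCODE M21 (GRCm38). The DESeq2 table and the reruns share the same libraries, so they are no independent support for each other.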

Additional observations from a re-analysis of the deposited data

How the results depend on the processing

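Of 15283 genes limma called 8, and it called 6 to 8 with other pseudocounts, filters and TMM factors. On the recovered reads edgeR called 8, limma voom 4 and DESeq2 617 (of 14097 genes with an adjusted p). With a library left out limma called between 0 and 32 genes, the 32 without GFP control II, and the lone library of a group was then taken to vary like the others. The members called stayed at 0 of 9 in every limma and edgeR fit, and DESeq2 called 3 (Flt1, Vegfc and Vegfa). With a library left out DESeq2 called between 0 and 2 members: none without GFP control I, Flt1 without GFP control II or SON I, and Flt1 and Vegfc without SON II. Over the 13 listed alternatives 8 of the 9 members kept the sign of their difference. The exception was Figf, which with a library left out ranged from -0.25 to 0.0253 in limma and from -0.23 to 0.0266 in DESeq2, positive without GFP control I. Flt1 stayed between -1.74 and -1.39, Vegfa between -0.99 and -0.57, Vegfc between -1.05 and -0.69, and Kdr between 0.83 and 1.85. The cause of these changes was not tested.

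Libraries I and II share only a numeral. The difference of I minus II correlated at r = 0.218 between the groups, across genes, which are not independent replicates. With the numeral as a replicate block limma called 11 genes and 0 members, and the adjusted p of Flt1 was 0.0855. Depth limits Kdr most, with 45 reads in GFP control I (exact 95% Poisson interval 27.4 to 50.3 normalized counts).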

Other observations

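Some genes differed between the libraries of a group. Prl2c2 encodes the hormone proliferin, a promoter of vessel growth. It measured 124 in GFP control I and 132 in SON I against 788 in GFP control II and 1447 in SON II. Of the 9 members, 6 had a difference of library I minus II with the same sign in both groups (Vegfa, Vegfb, Vegfc, Pgf, Flt1 and Nrp1), and 3 did not (Figf, Kdr and Nrp2). Nrp1 was higher in library I by 0.66 on the log2 scale in the GFP control and by 0.60 in SON, beside a difference of 0.59 between the groups. For Pgf these were 0.57 and 0.63, beside -0.98 between the groups. The labels do not say what the numerals share. Mcam stood high in SON I alone, at 8614 against at most 1268 in the other 3 libraries, and Col18a1, the source of the inhibitor endostatin, measured 2037 and 761 in GFP control I and II and 533 and 1780.4 in SON I and II. These genes were named after their values had been seen.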
